A study of Mus musculus with 5 samples.

Results

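The genes described here are 9 genes for C-type lectin-like proteins best known from natural killer (NK) cells, Klrk1, Klrd1, Klrc1, Klrc2, Klrg1, Klrb1c, Klre1, Clec2d and Cd69, of 22350 protein-coding genes in the GENCODE vM1 annotation of the mouse genome (build mm9, chromosome 6). They were taken as a named list, which like the other gene lists below was chosen with earlier results of these data known. Every called region that touched a gene body extended by 20 kb on each side was assigned to the gene. This gave 10 of the 9135 Runx3-bound regions and 19 of the 18992 regions marked by H3K4me1, histone H3 monomethylated at lysine 4. The label holds with 3 qualifications. Klrg1 lies 6.33 Mb from Klrb1a, the first lectin gene of the NK gene complex as delimited here, Clec2d encodes a ligand of a lectin receptor, and Cd69 is an activation antigen of most lymphocytes.

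The regions came from chromatin immunoprecipitation and sequencing (ChIP-seq) of splenic CD8+ T cells (CD8-TC) of ICR mice, an outbred stock, isolated with anti-CD8 magnetic beads. All libraries shared the same treatment, in which the cells were stimulated through the T cell receptor for 2 days with plate-bound anti-CD3e and soluble anti-CD28 and then kept for 4 days in 100 u/ml IL-2. There were 2 libraries with a polyclonal anti-Runx3 antibody made in-house, 2 with non-immune rabbit serum (NIS) as control and 1 with a monoclonal anti-H3K4me1 antibody. The Runx3 list was called once on the joined reads of its repeats, so a region bound in 1 repeat only may be included. The labels give 1 H3K4me1 library while their protocol speaks of 2 experiments, and whether that list rests on 1 or 2 libraries is not known. Neither list holds a value per library or read numbers, and the depth behind a region is unknown. The authors reported fewer uniquely aligned reads for these activated cells than for resting CD8-TC. No group without Runx3 or without stimulation was analysed here, and the ages and number of the mice were not given in the sources used here. Since the lists have no replicates, the comparisons below are counts without a test, and their 95% Wilson intervals cover counting error only.

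Lectin-like receptors of the Klr families let NK cells and activated CD8-TC read the surface of other cells, either activating or inhibiting the response. Many of their genes sit side by side in the NK gene complex of chromosome 6, where families have grown by duplication, so that neighbouring genes can be nearly identical in sequence. Runx3 is a DNA-binding transcription factor of the RUNX family that CD8-TC and NK cells need in order to activate and proliferate effectively. H3K4me1 is a histone mark found at enhancers and around promoters.

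The following sequences are the central 200 bp of Runx3-bound regions at Klrk1, Klrd1 and Cd69, the only members with Runx3 inside the gene body, to show the letters on which the motif counts below rest. They are mm9 sequence on the plus strand, written 5′ to 3′, and capitals mark the RUNX motif, searched as TGTGGT or TGTGGC or TGCGGT or TGCGGC on both strands (a motif on the minus strand appears as its reverse complement).
Klrk1 start, chr6:129573922-129574121: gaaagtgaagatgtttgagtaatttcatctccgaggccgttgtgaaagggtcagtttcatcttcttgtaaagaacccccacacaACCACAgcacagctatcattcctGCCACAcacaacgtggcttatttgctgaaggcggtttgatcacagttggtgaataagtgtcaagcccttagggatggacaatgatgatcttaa
Klrd1 start, chr6:129541570-129541769: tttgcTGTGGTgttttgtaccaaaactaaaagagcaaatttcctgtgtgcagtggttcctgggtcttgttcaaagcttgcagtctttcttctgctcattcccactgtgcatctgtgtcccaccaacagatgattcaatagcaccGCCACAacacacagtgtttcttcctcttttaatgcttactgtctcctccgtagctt
Klrk1 downstream, chr6:129558437-129558636: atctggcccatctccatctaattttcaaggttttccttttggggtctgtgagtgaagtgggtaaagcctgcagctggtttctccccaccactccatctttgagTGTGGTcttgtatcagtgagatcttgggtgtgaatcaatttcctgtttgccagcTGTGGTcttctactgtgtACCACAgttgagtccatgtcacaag
Cd69 intron, chr6:129223755-129223954: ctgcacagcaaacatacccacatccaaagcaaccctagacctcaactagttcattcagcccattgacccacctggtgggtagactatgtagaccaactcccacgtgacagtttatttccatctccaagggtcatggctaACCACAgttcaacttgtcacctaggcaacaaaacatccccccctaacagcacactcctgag
Cd69 upstream, chr6:129234524-129234723: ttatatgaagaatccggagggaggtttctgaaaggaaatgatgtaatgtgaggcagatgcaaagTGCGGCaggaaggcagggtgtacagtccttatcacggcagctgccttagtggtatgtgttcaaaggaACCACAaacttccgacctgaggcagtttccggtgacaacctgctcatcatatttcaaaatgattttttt

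The next sequences show duplicated upstream sequence of the Klrb1 and Klrc families, each Runx3-bound region followed by the sequences in the complex that aligned to its central 200 bp. Capitals again mark the RUNX motif, and the Klrb1f copy is written on the minus strand because it aligned in that orientation. Klrb1f and Klrc3 are lectin genes of the complex and Clec2f-ps is annotated there, but none of them is among the 9.
Klrb1c upstream, chr6:128746477-128746676: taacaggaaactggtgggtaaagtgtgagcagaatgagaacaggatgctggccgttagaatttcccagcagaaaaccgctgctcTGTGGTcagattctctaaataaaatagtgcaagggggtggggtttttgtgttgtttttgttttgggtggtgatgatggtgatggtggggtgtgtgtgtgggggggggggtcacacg
Klrb1f upstream copy, minus strand, chr6:128987061-128987180: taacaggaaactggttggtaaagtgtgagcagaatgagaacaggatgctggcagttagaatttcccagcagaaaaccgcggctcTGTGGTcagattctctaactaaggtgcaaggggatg
Clec2f-ps upstream copy, chr6:128964606-128964726: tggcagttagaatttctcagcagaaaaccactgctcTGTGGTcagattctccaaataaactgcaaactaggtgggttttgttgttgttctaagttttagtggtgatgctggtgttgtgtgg
Klrc3 upstream, chr6:129594113-129594312: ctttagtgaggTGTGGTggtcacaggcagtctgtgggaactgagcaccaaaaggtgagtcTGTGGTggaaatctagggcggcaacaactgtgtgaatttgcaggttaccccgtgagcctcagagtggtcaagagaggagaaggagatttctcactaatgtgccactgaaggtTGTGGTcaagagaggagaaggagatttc
Klrc2 upstream copy, chr6:129611380-129611579: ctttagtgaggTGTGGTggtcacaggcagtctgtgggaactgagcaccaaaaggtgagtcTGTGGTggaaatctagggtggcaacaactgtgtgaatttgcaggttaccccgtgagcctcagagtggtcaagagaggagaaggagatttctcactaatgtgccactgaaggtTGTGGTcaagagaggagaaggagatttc
Klrc1 upstream copy, chr6:129630585-129630754: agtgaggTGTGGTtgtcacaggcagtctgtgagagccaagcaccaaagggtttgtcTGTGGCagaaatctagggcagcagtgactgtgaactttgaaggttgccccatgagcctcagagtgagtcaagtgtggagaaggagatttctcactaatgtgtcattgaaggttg

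Of the 9 genes, 7 had a Runx3-bound region within 20 kb, compared with 34.2% of all protein-coding genes. All 9 had an H3K4me1-marked region, compared with 39.4%, and 7 had both, compared with 26.2%. Klrk1, Klrd1, Klrb1c, Klre1 and Cd69 had 2 or more Runx3-bound regions, 5 of 9 genes compared with 13.6% of all. The median was 2 Runx3-bound and 3 H3K4me1-marked regions per member window, and 0 of either over all protein-coding genes. The windows of neighbours overlapped (9 windows joined into 5 stretches of 338 kb in all), so 2 Runx3-bound and 6 H3K4me1-marked regions were counted for more than 1 gene and the genes were not independent of each other.

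**Figure D1:**
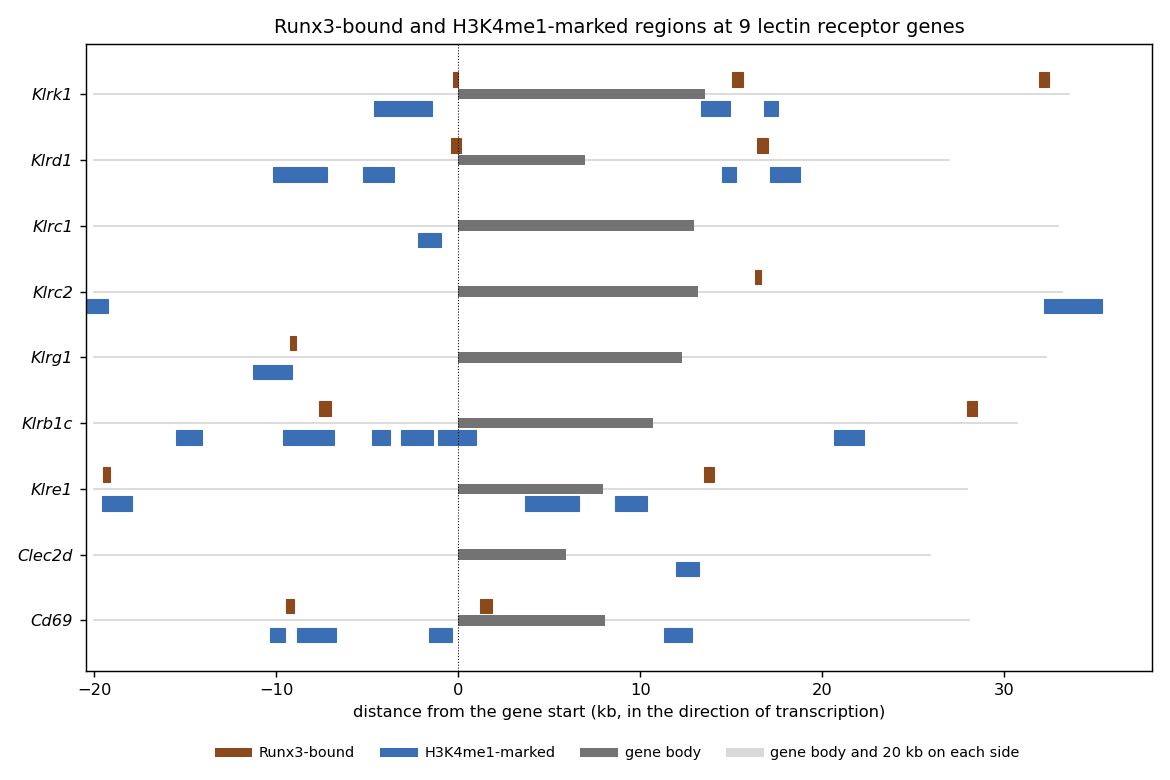
Positions of the called regions along each of the 9 genes, with distance from the gene start in kb in the direction of transcription on the horizontal axis, Runx3-bound regions above and H3K4me1-marked regions below the gene body. Runx3-bound regions lie over the starts of Klrk1 and Klrd1, while Klrc1 and Clec2d have H3K4me1 but no Runx3-bound region in the window.

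Klrk1 encodes NKG2D, an activating receptor for stress-induced ligands, and it had 3 Runx3-bound regions, the most of the 9 genes. A region of 303 bp at chr6:129573870-129574172 covered the Klrk1 start and reached into untranslated exon sequence, and its centre was 0.139 kb upstream of the start. A region of 583 bp at chr6:129558245-129558827 lay 1.51 kb past the 3′ end of the gene. The remaining region was the one at the Klrd1 start, 18.4 kb beyond the gene body. H3K4me1 covered 10.3% of the Klrk1 window in 3 regions, and the widest, 3162 bp at chr6:129575349-129578510, began 1176 bp from the Runx3-bound region at the start. The start region itself was not marked.

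Klrd1 encodes CD94, which pairs with the NKG2 proteins of the Klrc genes. Its start was covered by a Runx3-bound region of 546 bp at chr6:129541397-129541942, centred 0.131 kb upstream and reaching into coding exon sequence. This region also fell in the windows of Klrk1 and Klre1, and its nearest H3K4me1-marked region was 3136 bp away. The region past the 3′ end of Klrk1 also lay in the Klrd1 window, 9.45 kb beyond the gene body. H3K4me1 covered 15.0% of the Klrd1 window in 4 regions, of which the widest had 2973 bp and lay over Klre1. With Klrk1, Klrd1 made up the 2 of 9 members with Runx3 within 1 kb of the start (22.2%, Wilson interval 6.32 to 54.7%). The share of all protein-coding genes was 9.43%, inside that interval. Neither the Klrk1 nor the Klrd1 start region overlapped H3K4me1.

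Klrc1 and Klrc2 encode NKG2A, an inhibitory receptor, and NKG2C, an activating one, which bind the MHC molecule H2-T23 as partners of CD94. Klrc1 had no Runx3-bound region in its window, and the nearest lay 21.7 kb from the gene body. It had 1 H3K4me1-marked region of 1249 bp at chr6:129629926-129631174, centred 1.56 kb upstream of its start. Klrc2 had 1 Runx3-bound region, of 340 bp at chr6:129594043-129594382, and 2 H3K4me1-marked regions that covered 3.34% of the window. The Runx3-bound region was 16.5 kb from the Klrc2 start but 0.857 kb upstream of the start of Klrc3, which encodes another NKG2 protein, so its assignment to Klrc2 rests on the width of the window.

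The sequence of this Klrc3 upstream region occurs again beside both Klrc members. Along its whole 340 bp it was 99.7% identical to a copy at chr6:129611310-129611649, 0.772 kb upstream of Klrc2, and the central 200 bp differed at 1 position. That copy held 3 RUNX motifs, as did the bound region, and was in neither list. Another copy, 81.4% identical over 253 bp, lay 1.64 kb upstream of Klrc1 inside its H3K4me1-marked region and held 2 RUNX motifs but no Runx3-bound region. The authors kept only uniquely aligned reads. Of the 32-base words of the Klrc3 upstream region 10.4% occur once in mm9, and of its Klrc2 copy likewise 10.4%, whereas the Klrc1 copy is unique throughout. Over most of this sequence, binding beside Klrc2 and binding beside Klrc3 cannot be told apart.

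Klrb1c encodes NKR-P1C, an activating receptor and the classical NK cell antigen of some mouse strains. It had 2 Runx3-bound and 6 H3K4me1-marked regions, and the mark covered 21.3% of its window, the highest share among the 9 genes. The marked regions formed a row from chr6:128738247-128740368, which covered the Klrb1c start, to chr6:128753307-128754739, 14.8 kb upstream, with 1 more on the 3′ side. One Runx3-bound region, of 664 bp at chr6:128746245-128746908 and 7.34 kb upstream of the start, lay wholly within the widest of them (2832 bp). The other, of 557 bp at chr6:128710734-128711290, lay 17.2 kb beyond the 3′ end, was unmarked and had the highest GC content of the 10 regions in its central 200 bp, 63.5% compared with a median of 48.2%.

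Both Klrb1c regions had copies in the complex. The upstream region had 4, of which 1 was Runx3-bound. This one was 95.5% identical over 355 bp to sequence at chr6:128987061-128987412, where a Runx3-bound region at chr6:128986980-128987291 lay 8.78 kb upstream of Klrb1f and overlapped H3K4me1. The same RUNX motif, TGTGGT, stood in the aligned part of both. The copies without a Runx3-bound region were less alike. The one at chr6:128964606-128964726, 79.8% identical over 124 bp and 3.93 kb upstream of Clec2f-ps, also held a TGTGGT and was in neither list. Those at chr6:128964729-128964901 (68.2% over 176 bp) and chr6:128986029-128986274 (75.3% over 247 bp) held no RUNX motif, and only the latter overlapped H3K4me1. The downstream region had 3 copies, none of them Runx3-bound. The longest was 95.9% identical over 559 bp, lay at chr6:128749474-128750031, 10.5 kb upstream of Klrb1c, and held 4 RUNX motifs against 2 but no called region of either kind. Unique words made up 50.6% of the downstream region and 55.6% of this copy. The others, 87.1% identical over 124 bp and 72.4% over 134 bp, held no RUNX motif.

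Klre1 encodes a receptor subunit that pairs with the Klri proteins. Its own Runx3-bound region, of 389 bp at chr6:129508373-129508761, lay 19.3 kb upstream of the start and wholly within an H3K4me1-marked region of 1623 bp. It was the only one of the 10 without a RUNX motif in the central 200 bp, and it held 1 motif 132 bp from its centre. The other region in the Klre1 window was that of the Klrd1 start, 13.8 kb from the Klre1 start. H3K4me1 covered 13.2% of the window in 3 regions, 1 of them over the gene body.

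Klrg1 encodes an inhibitory receptor for cadherins and is widely used as a marker of short-lived effector CD8-TC. It had 1 region of each kind. The Runx3-bound region of 313 bp at chr6:122241805-122242117, 9.06 kb upstream of the start, shared 109 bp (34.8% of its length) with an H3K4me1-marked region of 2151 bp. The next H3K4me1-marked region beyond the Klrg1 window was 209 kb away from the gene body. The Klrg1 upstream region was the only one of the 10 Runx3-bound regions with an AP-1 motif in the central 200 bp.

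Clec2d encodes Clr-b, a ligand of an inhibitory Klrb1 receptor. It had no Runx3-bound region within 20 kb and 1 H3K4me1-marked region of 1265 bp, 12.6 kb from the start on the 3′ side. The nearest Runx3-bound region, at chr6:129160428-129160868, was 23.9 kb from the gene body.

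Cd69 encodes an early activation antigen that holds lymphocytes in tissue by binding the receptor encoded by S1pr1. A Runx3-bound region of 658 bp at chr6:129223526-129224183 lay in an intron, 1.53 kb downstream of the start, and was not marked. A second of 424 bp at chr6:129234412-129234835, 9.24 kb upstream, sat in a gap between H3K4me1-marked regions, 145 bp from one of 2138 bp and 55 bp from one of 818 bp. H3K4me1 covered 12.0% of the window in 4 regions, and the region nearest to the start was centred 0.988 kb upstream.

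The 20 kb limit ran between close values for several genes. The farthest Runx3-bound region inside it was 19.1 kb from the body of Klre1, and the nearest ones outside were 20.2 kb from Klrk1 and 21.7 kb from Klrc1. For H3K4me1 the farthest inside was 19.2 kb from Klrc2 and the nearest outside was 20.5 kb from Klre1.

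**Figure D2:**
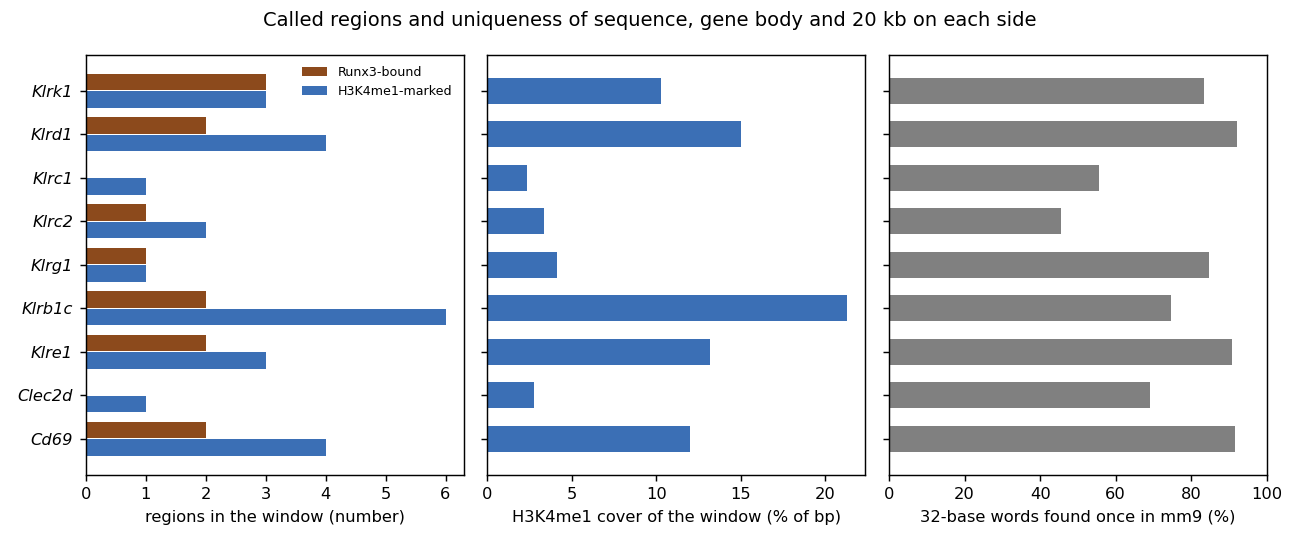
Number of called regions, H3K4me1 cover in percent of base pairs and percent of 32-base words found once in mm9, for the window of each of the 9 genes. Klrb1c has the most H3K4me1 (21.3%), and Klrc2 (45.6%) and Klrc1 (55.6%) have the least unique sequence.

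The members' Runx3-bound regions lay mostly outside H3K4me1. In all, 3 of 10 overlapped a marked region (30.0%, Wilson interval 10.8 to 60.3%), those of Klrg1, Klrb1c and Klre1, compared with 57.3% of all Runx3-bound regions, a share inside that interval. A further 2 of 10 (interval 5.67 to 51.0%) lay outside but within 1 kb of the mark. The share of all Runx3-bound regions was 8.22%, inside that interval. The 2 were the Cd69 upstream region and the region past the 3′ end of Klrk1. The Cd69 upstream region alone was flanked on both sides, 1 of 10 compared with 1.2%. The remaining 5 of 10 were farther than 1 kb, including those at the Klrk1 and Klrd1 starts. Read from the mark, 3 of the 19 H3K4me1-marked regions held Runx3 (15.8%, interval 5.52 to 37.6%), and 29.2% of all marked regions did so, a share inside the interval. Widths were close to those of the whole lists, with medians of 485 bp against 521 bp for Runx3 and 1620 bp against 1590 bp for H3K4me1.

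**Figure D3:**
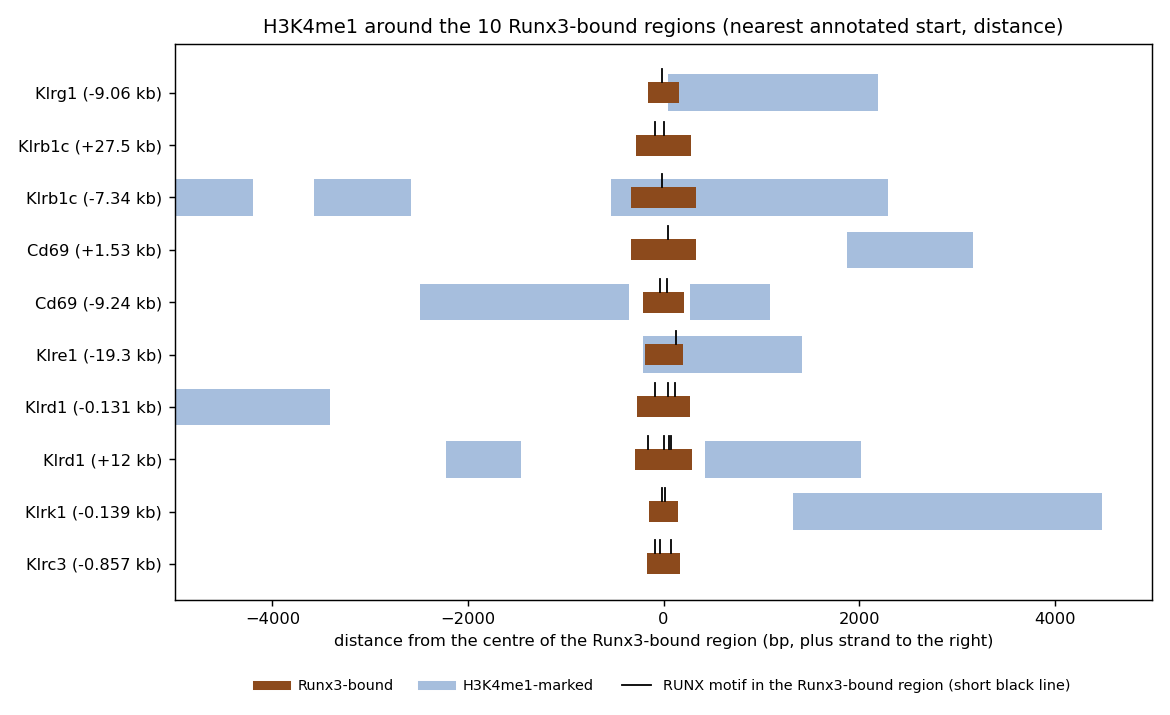
H3K4me1-marked regions around the 10 Runx3-bound regions, each row centred on a region and named by the nearest annotated transcript start and its distance, with bp on the horizontal axis and short lines for RUNX motifs. The regions at Klrg1, upstream of Klrb1c and at Klre1 overlap the mark, and the one 9.24 kb upstream of Cd69 lies between marked regions 145 bp and 55 bp away.

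RUNX motifs were found in the central 200 bp of 9 of the 10 Runx3-bound regions (90.0%, interval 59.6 to 98.2%), compared with 78.7% of all Runx3-bound regions, a share inside the interval, and 24.1% (interval 22.1 to 26.2%) of 1652 windows of 200 bp from the same loci outside Runx3-bound regions. Of the 17 motifs there, 12 were TGTGGT, which occurred in 8 of 10 regions (interval 49.0 to 94.3%). The share of all Runx3-bound regions was 54.3%, inside that interval. At the Klrd1 start the motifs of the whole region lay 222, 83 and 15 bp upstream of the start, and at the Klrk1 start 127 and 150 bp upstream. The Klrc3 upstream region and the region past the 3′ end of Klrk1 held 3 TGTGGT each. In the downstream Klrb1c region both motifs were TGCGGT.

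ETS motifs (AGGAAA or AGGAAG or CGGAAA or CGGAAG) stood in 4 of 10 central windows (40.0%, interval 16.8 to 68.7%), compared with 66.1% of all Runx3-bound regions and 46.0% of the windows outside, and both shares lie inside the interval. In the central 100 bp the share was 20%, and in the whole regions 70%. In the central 200 bp they were in the upstream regions of Klrb1c and Cd69, in the Klrd1 start region and past the 3′ end of Klrk1. The AP-1 motif (TGACTCA or its reverse complement TGAGTCA) was in 1 of 10, compared with 6.49%, and the T-box motif (AGGTGTGA) in 0 of 10, compared with 1.88%, where a floor of 3 counts allows a share of up to 30.0% and the Wilson interval one of up to 27.8%. Pairs of motifs with a gap of 50 bp or less, termed modules, joined RUNX to ETS in 3 of 10 regions compared with 39.0%, and RUNX to RUNX in 3 of 10 compared with 25.7%. In the windows outside, these modules were in 6.6% and 1.57%. The region past the 3′ end of Klrk1 held both kinds, the regions at the Klrd1 start and upstream of Cd69 held ETS-RUNX, and those at the Klrk1 start and upstream of Klrc3 held RUNX-RUNX. A motif match is a description of the letters and not evidence of a bound site.

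Of the 16 H3K4me1-marked regions without Runx3, 3 had a RUNX motif in the central 200 bp (18.8%, interval 6.59 to 43.0%), compared with 36.5% of all such regions, a share inside the interval. They were the regions over the Klrb1c start, between Klre1 and Klrd1 and upstream of Klrc1. The last held both a RUNX-RUNX and an ETS-RUNX module without a Runx3-bound region.

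**Figure D4:**
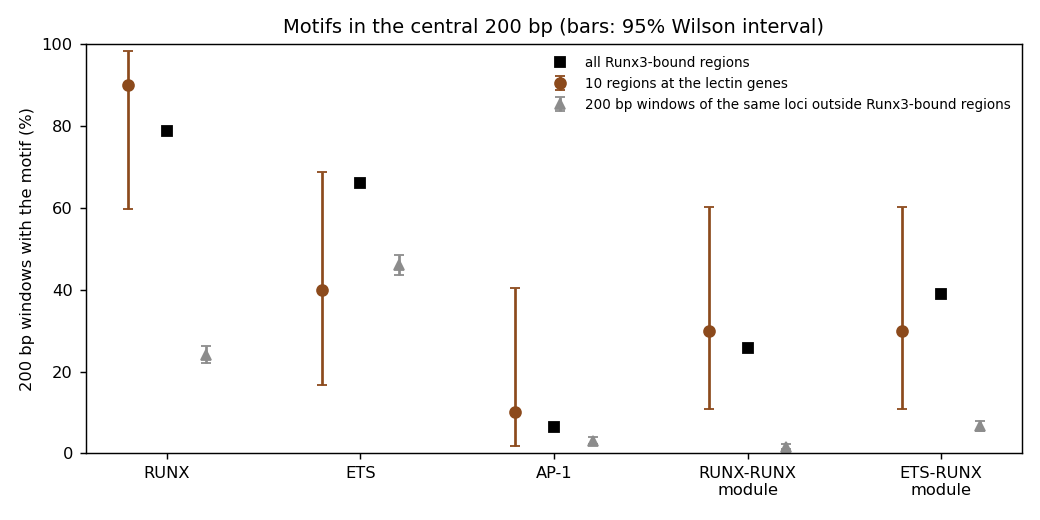
Percent of 200 bp windows that hold each motif or module, for the 10 Runx3-bound regions of the members (circles), all 9135 Runx3-bound regions (squares) and 1652 windows of the same loci outside Runx3-bound regions (triangles), with 95% Wilson intervals. RUNX motifs are in 90.0%, 78.7% and 24.1%, and ETS motifs in 40.0%, 66.1% and 46.0%.

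Since reads that align to several places were dropped, the uniqueness of the sequence was counted for each locus. Across the 2.68 Mb of the NK gene complex, 66.1% of 32-base words occur once in mm9, and the windows of the 9 genes ranged from 45.6% at Klrc2 to 92.0% at Klrd1. The gene bodies of Klrc1 and Klrc2 reached 40.1% and 34.0%. Of 27 bins of 100 kb, 12 held no called region of either kind, with a median of 51.5% unique words against 72.7% in the others. All bins starting 1.8 to 2.5 Mb from the left end of the complex were among the 12. They held no start of a listed lectin gene. The empty bins with such starts had 70.3, 71.9, 68.7 and 47.8% unique words, and the bin with 71.9% was that of the Clec2d start. In the Clec2d window, 69.1% of words were unique. The part of repeated sequence, of read depth, or of differences between ICR mice and the reference strain, in the absence of Runx3-bound regions at Klrc1 and Clec2d was not tested.

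**Figure D5:**
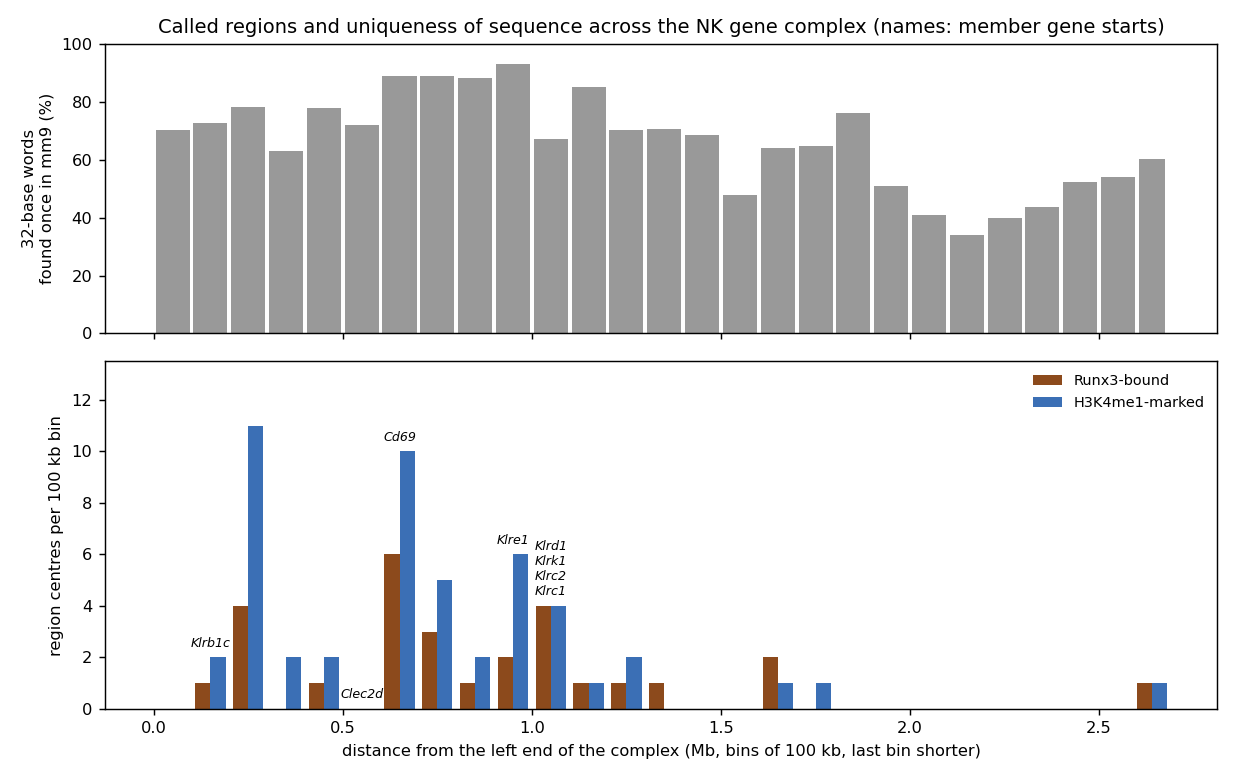
Percent of 32-base words found once in mm9 (top) and number of region centres (bottom) in bins of 100 kb along the NK gene complex, with distance from its left end in Mb and member genes named over the bin of their start. The 12 bins without a region have 34.1 to 76.3% unique words, and the others 60.4 to 93.1%. The bins starting 1.8 to 2.5 Mb from the left end hold neither a region nor a listed lectin gene start.

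Among the other lectin genes of the complex, 15 of 31 found in the annotation had a Runx3-bound region within 20 kb (48.4%, compared with 34.2% of all protein-coding genes) and 18 had H3K4me1 (58.1%, compared with 39.4%), with medians of 0 and 1 regions. Those with Runx3 were Klrb1b, Clec2i, Clec2g, Klrb1f, Clec12a, Clec1a, Clec1b, Clec9a, Klrc3, Klri2, Klra17, Klra5, Klra9, Klra7 and Klra2. Some of these regions were the members' own, namely 1 of 3 at Klrb1b (the upstream region of Klrb1c) and both at Klrc3 (those of the Klrk1 start and the Klrc2 window). Other regions were counted for several genes of this list. Clec1a, Clec1b and Clec9a shared the one at chr6:129356080-129356548. Clec2g and Klrb1f shared chr6:128986980-128987291, and Klra9 and Klra7 shared chr6:130187558-130188039. The 31 genes were therefore not independent of each other. No interval was computed for their shares, and Klra23 among them is annotated as a processed transcript and not as protein-coding. Klrc3 and Klra5 had Runx3 within 1 kb of the start. Of the 28 Runx3-bound regions of the complex, 9 were at members, of which 2 overlapped H3K4me1, and 19 were at none, of which 12 did.

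Most genes that carry the receptors' signals had called regions. Of 11 adaptor and signalling genes found, 10 had Runx3 (90.9%, compared with 34.2% of all genes) and 10 had H3K4me1 within 20 kb (compared with 39.4%), with medians of 2 and 4 regions. The adaptors of NKG2D were among them, Hcst with 2 Runx3-bound and 3 H3K4me1-marked regions and Tyrobp with 2 and 4, at genes that lie beside each other and so share regions. The lipid phosphatase gene Inpp5d, which acts downstream of inhibitory receptors, had 3 and 9, and Ptpn6, encoding the phosphatase recruited by the same receptors, had 2 and 5. Ptpn11 had neither. The shares over all genes were not matched for gene length here, nor for the other lectin, ligand and marker lists. A longer gene has a wider window, and the adaptor and signalling genes differ widely in length. The part of gene length in their shares was not tested. Of 7 ligand or partner genes found, 4 had Runx3 and 4 had H3K4me1 (57.1% each, compared with 34.2% and 39.4% of all genes). The NKG2D ligand genes H60b and H60c had 2 Runx3-bound regions each, as did S1pr1, the partner of Cd69, and Cdh1, a cadherin bound by Klrg1. H60c had no H3K4me1-marked region. Raet1d, another NKG2D ligand gene, and Cdh2, another cadherin gene, had no region of either kind. H2-T23 had 2 H3K4me1-marked regions and no Runx3.

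The labelled cell type was compared with marker genes, with the limit that a called region is not expression. All 7 T cell genes (such as Cd3e, Cd8a and Cd8b1) had both Runx3 and H3K4me1 within 20 kb, compared with 26.2% of all protein-coding genes. The windows of Cd3g, Cd3d and Cd3e overlapped, as did those of Cd8a and Cd8b1, so the 7 genes were not independent of each other. Of 4 NK cell genes, Klrb1c and Itga2 had both, Gzma had 5 H3K4me1-marked regions without Runx3 and Ncr1 had neither. Of 4 B cell genes 1 had Runx3 and 2 had H3K4me1, and the counts were the same for the 4 dendritic cell or macrophage genes found. These counts lie near the shares over all genes, 34.2% and 39.4%, and do not set those cell types apart from genes at large.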

How the data were processed

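Reads of 40 to 42 bases were mapped by the authors to mm9 (ELAND). Reads with more than 1 place in the genome were left out. MACS was run once per antibody with the NIS libraries as background, after repeats had been put together and library sizes evened out. For H3K4me1 the labels give 1 library and their protocol 2 experiments. The deposited lists hold the chromosome, start and end position of each region, with 0 score columns and no read numbers.

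Positions were made 1-based. Regions and gene bodies (GENCODE vM1, NCBIM37, the build of mm9) extended by 20 kb were intersected (at least 1 bp). Distances run from region centres to gene starts. Motifs were searched on both strands in the central 200 bp, uniqueness was counted as 32-base words found once in the genome, and copies were aligned with blastn 2.17.0 (at least 100 bp). Shares have 95% Wilson intervals (scipy 1.17.1, pandas 2.3.3, Python 3.11.15). Overlap, motif and word counts were also tested on simulated data, with 0 differences from direct counting. All 9 members are named with each Runx3-bound region, and other genes come from lists of lectin, signalling, ligand and marker genes, where those with Runx3 or H3K4me1 are given. Members and lists were chosen with earlier results of these data known. Other windows, overlap rules and search widths were tried. RefSeq promoter sequences on another build were not used here.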

Additional observations from a re-analysis of the deposited data

How the results depend on the processing

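The width of the window set the counts. With the gene body alone, 5 kb and 50 kb in place of 20 kb, the 10 Runx3-bound regions became 3, 5 and 18, and the 19 H3K4me1-marked regions became 3, 11 and 32. Of the 9 genes, those with Runx3 numbered 3 with the gene body alone and 4 with 5 kb instead of 7, and those with H3K4me1 numbered 3 with the gene body alone instead of 9. The share over all protein-coding genes is given here at 20 kb only. The counts at other widths, those at 50 kb included, have no such comparison. Searching the whole region raised the share with a RUNX motif from 90 to 100% and with an ETS motif from 40 to 70%, by construction, as more sequence was searched, and in the central 100 bp the ETS share was 20%. The share of other protein-coding genes with Runx3 was 34.2% and became 29.7% on chromosome 6 only and 29.2% among genes with an extended body within 25% of the members' median; the cause was not tested. The other 10 of 23 alternatives stayed within 1.5 times the count, or for shares within the Wilson interval of the value reported. Among them, genes with Runx3 numbered 9 at 50 kb, genes with H3K4me1 numbered 6 at 5 kb, and the share of regions overlapping H3K4me1 ranged from 20 to 40%.

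No paired analysis was possible because the lists hold no values of single repeats, so leaving out a repeat was not run either. A stricter peak threshold was not run, since the lists hold no score. With 10 regions, the interval of a share is wide, as for ETS motifs (16.8 to 68.7%).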

Other observations

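Between Clec2d and Cd69, beyond 20 kb of either, 4 Runx3-bound regions lay in 2310001H17Rik, a non-coding gene picked out after the values were seen. Of these, 3 overlapped H3K4me1, at chr6:129160428-129160868, chr6:129180137-129180652 and chr6:129182845-129183424, and the one at chr6:129184475-129184901 did not. The first lay 30.0 kb from the Clec2d start and the last 40.7 kb from that of Cd69. Upstream of Klrb1b, an inhibitory relative of Klrb1c, Runx3-bound regions lay 10.1 and 16.9 kb from the start, and both overlapped H3K4me1. Klra5, a Ly49 family gene, had a Runx3-bound region 0.17 kb upstream of its start with 57.3% unique words and no H3K4me1.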
